A study of Mus musculus with 14 samples.

Results

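The data described here are the RNA profiles of mouse bone marrow macrophages grown in culture with the growth factor CSF1 and the cytokine IL4, set against macrophages grown with CSF1 alone. All 8 libraries of the culture experiment were used, 4 with IL4 and 4 controls, out of 14 libraries in the series. The other 6 libraries, from sorted marrow cells, were not analysed here. Monocytes purified from the bone marrow of C57BL/6J mice were kept for 7 days in RPMI medium with heat-inactivated fetal bovine serum. Every culture, control or not, received CSF1, at 25 ng/mL by the growth protocol and at 20 ng/mL by the design text, and the IL4 cultures also received 20 ng/mL of mouse IL4 for the same 7 days. Animal age is not given in the sources used here, and whether a library stands for a culture or an animal of its own is not said either. All p-values then measure only how far these libraries differ, and that spread may be technical. The series concerns IL4, phagocytosis of leukemia cells and the surface protein CD47.

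IL4 is a cytokine of type 2 immunity, made in allergy and worm infection. It binds a receptor that contains IL4RA together with either the common gamma chain IL2RG or IL13RA1. Receptor-bound Janus kinases then phosphorylate STAT6, which enters the nucleus and binds DNA as a dimer. Macrophages exposed to IL4 take on a state called alternative activation, known for arginase, chitinase-like and resistin-like secreted proteins, lectin receptors, cell fusion and tissue repair. CSF1, acting through the receptor CSF1R, keeps marrow macrophages alive and dividing.

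The deposited table held 9474 genes with a log2 value in each library. Whole reads were recovered from these values for 9376 of the genes (99.0%). The remaining 98 genes, most of them abundant, have only the deposited log2 value. Recovered reads summed to 511407 to 721413 per control library and 506062 to 614028 per IL4 library, and the median gene of a library held 23 to 41. The 50 genes with most recovered reads held 6.6% to 6.7% of them in controls and 13.1% to 14.7% with IL4. The libraries numbered 4 stood apart in both groups: the median distance of a gene from the other libraries of its group was 0.293 and 0.303 (log2) for them and 0.213 to 0.251 for the other 6. Of 24 macrophage genes all 24 were measured, among them Emr1, Csf1r, Cd68, Lyz2, Mertk and Fcgr1. Being measured does not place a gene in both groups, because Retnla and Cx3cr1 were measured yet each lacked reads in a whole group. For the 13 macrophage genes with recovered reads, the sum ranged over 3296 to 5320 among control libraries. Among IL4 libraries it ranged over 3303 to 4050. Single members differed, and 7 of the 24 rose while 11 fell. In these bulk samples, fewer cells of a kind and less RNA per cell cannot be told apart.

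A gene was called when limma gave a Benjamini-Hochberg adjusted p under 0.05 in the same direction both for the deposited values and for values less the median of their library. By this rule 754 of 9474 genes rose with IL4 (7.96%) and 1205 fell (12.7%). With the centred values alone 1365 rose and 1205 fell, and with the deposited values alone 754 rose and 3084 fell. The second condition matters because the median gene lay 0.36 lower with IL4 in the deposited values, and fold changes are given after centring, so a deposited fold change is 0.36 lower. The larger of both adjusted p-values is printed. Among the called genes, 738 that rose (7.79% of all genes) and 1040 that fell (with the former, 18.8%) had no overlap between the 4 controls and the 4 IL4 libraries. Where a gene list is said to hold no rise or no fall, limma at an unadjusted p under 0.05 and limma with voom weights also gave 0, unless counts are given. Reads are given in the order of libraries 1 to 4, unscaled for depth, which was greatest in control 1, and n is 4 per group. Where a group had 0 reads in every library, a fold is a lower bound against a floor of 3 reads over that group, and where it had very few, the ratio is given with its 95% counting interval, which covers counting error only.

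Promoter sequence is shown first for 4 gene groups whose members moved together: targets of STAT6, interferon response genes, genes of cell division and hypoxia genes. The stretches come from RefSeq promoters on GRCm38.p6, 250 bases before each start site, for 7710 of the genes (9848 start sites). They are written 5′ to 3′ on the gene's own strand with the letters of 1 match in capitals. Any further match in a stretch is left in lower case, as in that of Ifit1. A match is a description of letters, not of a bound site. The palindrome TTCNNNNGAA, the spacing that STAT6 prefers, stood in 6 of 22 start sites of the STAT6 targets that rose (27.3%), in 1 of 3 of the other members (33.3%) and in 4.6% of all start sites. Over all genes that rose its share was 5.1% of start sites, near that of all start sites. The shown genes rose from near 0 or, for Itgax and Clec7a, from a clear level in controls.
Retnla, chr16:48842439-48842498, plus strand: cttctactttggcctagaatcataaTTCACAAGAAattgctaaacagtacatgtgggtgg
Pdcd1lg2, chr19:29410812-29410871, plus strand: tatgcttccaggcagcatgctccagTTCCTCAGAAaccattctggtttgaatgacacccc
Tmem26, chr10:68723496-68723553, plus strand: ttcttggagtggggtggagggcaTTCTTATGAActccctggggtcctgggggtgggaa
Itgax, chr7:128129398-128129457, plus strand: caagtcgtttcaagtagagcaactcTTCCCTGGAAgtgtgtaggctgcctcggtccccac
Clec7a, chr6:129472876-129472935, minus strand: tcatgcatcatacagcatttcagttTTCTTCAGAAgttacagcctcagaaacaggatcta

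The interferon response element GAAANNGAAA, read on either strand, is bound by the complex that holds STAT2 and IRF9 and by other interferon regulatory factors. It stood in 13 of 27 start sites of the interferon response genes that fell (48.1%), in 2 of 8 of the other members (25.0%) and in 2.8% of all start sites. Over all genes that fell its share was 4.6% of start sites. These genes are shown because all of them fell with IL4.
Ifit1, chr19:34640760-34640819, plus strand: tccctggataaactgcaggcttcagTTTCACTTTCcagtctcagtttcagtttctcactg
Ifit3, chr19:34583348-34583407, plus strand: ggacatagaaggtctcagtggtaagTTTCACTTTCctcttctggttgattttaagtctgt
Oas3, chr5:120777700-120777759, minus strand: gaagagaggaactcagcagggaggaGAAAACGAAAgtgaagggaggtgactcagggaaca
Slfn8, chr11:83020824-83020883, minus strand: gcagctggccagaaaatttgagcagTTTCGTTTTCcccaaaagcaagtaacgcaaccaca
Stat2, chr10:128270251-128270310, plus strand: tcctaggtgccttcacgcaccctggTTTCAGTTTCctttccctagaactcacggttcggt

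The cell cycle homology region TTTGAA, or TTCAAA on the opposite strand, is read by the DREAM and MuvB complexes that switch mitotic genes. It stood in 19 of 39 start sites of the spindle, condensin and cytokinesis genes that fell (48.7%), in 1 of 4 of the other members (25.0%) and in 10.7% of all start sites. Over all genes that fell its share was 12.9% of start sites.
Top2a, chr11:99024338-99024393, minus strand: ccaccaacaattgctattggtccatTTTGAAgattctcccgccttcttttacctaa
Kif2c, chr4:117178845-117178900, minus strand: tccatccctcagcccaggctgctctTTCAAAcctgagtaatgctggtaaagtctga

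The hypoxia response core ACGTG, or CACGT on the opposite strand, is bound by HIF1A or EPAS1 together with ARNT, and is also contained in the E box CACGTG of other factors. It stood in 14 of 21 start sites of the hypoxia genes that rose (66.7%), in 2 of 7 of the other members (28.6%) and in 22.7% of all start sites. Over all genes that rose its share was 23.9% of start sites, near that of all start sites.
Egln3, chr12:54204074-54204124, minus strand: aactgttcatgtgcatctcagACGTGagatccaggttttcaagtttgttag
Bnip3, chr7:138909585-138909639, minus strand: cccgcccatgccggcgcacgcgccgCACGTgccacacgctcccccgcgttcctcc
Ero1l, chr14:45318606-45318660, minus strand: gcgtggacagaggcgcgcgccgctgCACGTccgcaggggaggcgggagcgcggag
Mxi1, chr19:53329322-53329376, plus strand: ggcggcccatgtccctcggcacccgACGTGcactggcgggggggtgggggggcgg

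The 15 largest rises were almost all switches from a few reads or none. Retnla (chr16:48842551-48844461, plus strand), a secreted resistin-like protein, had 0 reads in every control and 5597, 4902, 4641 and 11618 with IL4, at least 10893-fold higher. Chil3 (chr3:106147554-106167564, minus strand), a chitinase-like secreted protein, had 2, 6, 2 and 2 reads in controls and 24492, 27681, 16828 and 15896 with IL4, counts that are accurate only to the rounding of the deposited values. Arg1 (chr10:24915221-24927484, minus strand), the arginase that splits arginine into ornithine and urea, had 0, 0, 1 and 0 reads in controls and 8038, 8497, 6839 and 1714 with IL4, a ratio of 30638 (95% counting interval 5498 to 1210200). Groups did not overlap for any of these, and IL4 library 4 was the highest for Retnla and the lowest for Arg1. The ribonuclease gene Rnase2a had 0 reads in every control and 646, 510, 434 and 676 with IL4 (at least 922-fold higher), and its relative Ear2 had 0, 2, 0 and 0 and 578, 471, 587 and 1328, a ratio of 1810 (95% counting interval 501 to 14952). The galactose lectin gene Mgl2 went from 0 in every control to 511, 592, 465 and 344 (at least 778-fold higher). Pdcd1lg2, which encodes the PD-1 ligand PD-L2, had 1, 0, 0 and 0 reads in controls and 153, 174, 135 and 103 with IL4, a ratio of 690.0 (95% counting interval 123 to 27301).

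The remaining genes among the largest rises were less uniform in what they encode. Slc7a2, a transporter of cationic amino acids, had 17, 6, 8 and 21 reads in controls and 2585, 3214, 1970 and 820 with IL4 (log2 fold change 7.60 ± 0.41 SE, limma adjusted p = 1.42e-06). Tmem26, a membrane protein gene, had 4, 1, 3 and 1 and 355, 385, 298 and 391 (log2 fold change 7.47 ± 0.32 SE, limma adjusted p = 3.95e-07). The alpha tubulin gene Tuba8 was at 0 in every control and at 61, 50, 53 and 59 with IL4 (at least 90.8-fold higher). A pair of coagulation factor genes stood among the largest rises. F7 (factor VII) had 6, 1, 4 and 55 reads in controls and 560, 577, 624 and 675 with IL4 (log2 fold change 6.71 ± 0.85 SE, limma adjusted p = 0.000307), and F10 (factor X) had 1, 2, 5 and 34 and 324, 333, 221 and 156 (log2 fold change 5.86 ± 0.83 SE, limma adjusted p = 0.000627), with control 4 well above the other controls in both. Cdh1, the gene of the adhesion protein E-cadherin, had 1, 0, 0 and 0 and 75, 102, 61 and 11, a ratio of 304 (95% counting interval 54.1 to 12058), and Gpr35, a G protein coupled receptor gene, had 1, 0, 4 and 3 and 102, 115, 125 and 35, a ratio of 57.6 (95% counting interval 28.9 to 134). IL4 library 4 was the lowest of its group for Slc7a2, F10, Cdh1 and Gpr35, yet above every control.

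Among the 15 largest falls, several genes went to 0 reads or close to it. Cx3cr1 (chr9:119901616-120069879, minus strand), the fractalkine receptor gene, had 249, 231, 286 and 154 reads in controls and 0 in every IL4 library (at least 251-fold lower). Hpgd (chr8:56294585-56321043, plus strand), the dehydrogenase that inactivates prostaglandins, had 221, 168, 207 and 253 reads in controls and 0 in every IL4 library (at least 232-fold lower). Slc40a1, the iron exporter ferroportin, had 359, 265, 308 and 474 in controls and 0, 1, 3 and 13 with IL4 (log2 fold change -6.86 ± 0.84 SE, limma adjusted p = 0.000251). Stab1, the scavenger receptor stabilin 1, was among the abundant genes of controls, with 3021, 2576, 2215 and 1840 reads, and had 27, 23, 40 and 26 with IL4 (log2 fold change -6.08 ± 0.20 SE, limma adjusted p = 3.09e-08). In none of these 4 genes did the groups come close. Itgal, the alpha chain of the integrin LFA-1, fell from 240, 162, 163 and 239 to 13, 11, 4 and 2 reads, and Id3, an inhibitor of helix-loop-helix transcription factors, from 255, 152, 177 and 168 to 9, 2, 1 and 4. Ms4a6b, a member of the MS4A family of membrane proteins, fell from 102, 63, 56 and 31 to 2, 2, 2 and 1. Ssh2, a phosphatase that activates the actin-severing protein cofilin, fell from 155, 125, 119 and 99 to 9, 8, 6 and 4, and Sh3bp5, an adaptor gene, from 95, 63, 61 and 43 to 2, 2, 4 and 2.

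**Figure D1:**
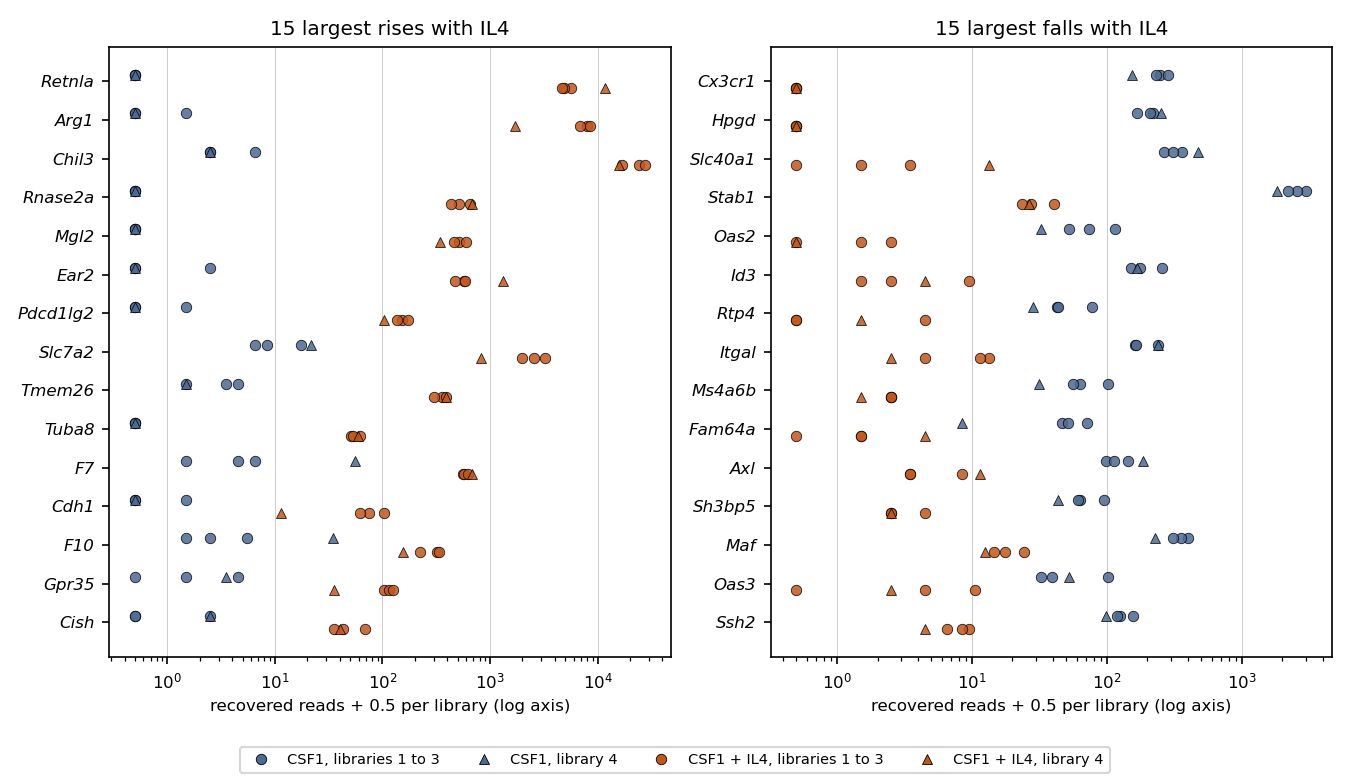
Recovered reads plus 0.5 in each library (log axis) for the 15 genes with the largest rises and the 15 with the largest falls; blue marks controls, orange marks IL4, circles are libraries 1 to 3 and triangles are libraries numbered 4. Most rises start at 0 to a few reads, Cx3cr1 and Hpgd end at 0, and control 4 lies apart from the other controls for F7, F10 and Fam64a.

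Genes that act in the IL4 signal itself changed in both directions. Of 28 measured genes of IL4 and IL13 receptor signalling 4 rose and 5 fell (median log2 fold change -0.17, against 0 for all genes after centring). The receptor gene Il4ra had 155, 115, 104 and 93 reads in controls and 62, 63, 47 and 50 with IL4 (log2 fold change -0.77 ± 0.13 SE, limma adjusted p = 0.00131), with no overlap. Il2rg, the common gamma chain, had a log2 fold change of -0.26 ± 0.20 (adjusted p = 0.377) and was not called. Stat6 was not called either, at 0.20 ± 0.10 (adjusted p = 0.238), and its sign depends on the scale: it is 0.20 after centring and -0.16 as deposited. The kinase gene Jak2 rose (log2 fold change 1.79 ± 0.18 SE, limma adjusted p = 0.00019). Genes of negative feedback rose from very few reads: Cish had 2, 0, 0 and 2 in controls and 69, 42, 35 and 40 with IL4, Socs2 had 0, 1, 3 and 1 and 24, 35, 20 and 14, and Socs1 had 0, 3, 0 and 2 and 10, 17, 18 and 15. The phosphatase genes Inpp5d (SHIP1; log2 fold change -1.26 ± 0.13 SE, limma adjusted p = 0.00012) and Ptpn6 (SHP-1; log2 fold change -1.20 ± 0.12 SE, limma adjusted p = 6.81e-05) fell, as did Pik3r1, the regulatory subunit of PI3 kinase (-1.24 ± 0.17).

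Of 27 measured STAT6 targets of alternative activation 24 rose and none fell, and leaving out any single library left that count at 24. The list was assembled with results of these data known, so its direction is not independent evidence. The median log2 fold change was 3.92. Beside the switches above, Itgax, the CD11c integrin chain, had 80, 11, 41 and 372 reads in controls and 2289, 2669, 1871 and 1776 with IL4 (log2 fold change 5.39 ± 0.79 SE, limma adjusted p = 0.000779). Control 4 was the highest control for Itgax by a wide margin, and it also was for Clec7a (207, 52, 100 and 641 in controls, 892, 1013, 763 and 661 with IL4; log2 fold change 2.62 ± 0.59 SE, limma adjusted p = 0.0103), the gene of the beta-glucan receptor dectin-1. Fn1, fibronectin, had deposited log2 values of 4.64, 6.28, 5.39 and 5.54 in controls and 8.82, 8.57, 8.45 and 8.38 with IL4 (log2 fold change 3.45 ± 0.28 SE, limma adjusted p = 3.81e-05). Members that did not pass were Mrc1, Tfec and Fgl2. Mrc1, the mannose receptor gene and a common marker of this state, had deposited log2 values of 8.98, 9.30, 9.07 and 8.11 in controls and 9.16, 9.10, 8.89 and 8.86 with IL4, a log2 fold change of 0.50 ± 0.20 (adjusted p = 0.648). Its groups overlapped, and control 4 was the lowest of all 8.

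Lectin genes split. Of 15 C-type lectin and mannose receptor genes 5 rose and 5 fell. Clec10a, which stands beside Mgl2 as a galactose lectin, rose from 6, 4, 5 and 2 to 31, 32, 34 and 28 reads, and Clec4b1 and Clec4a3 also rose (2.16 and 1.27). Clec4d and Clec4e, receptors for mycobacterial glycolipids, fell: Clec4d had 493, 337, 325 and 349 reads in controls and 77, 61, 58 and 34 with IL4 (log2 fold change -2.46 ± 0.18 SE, limma adjusted p = 1.34e-05). Clec4e had 28, 20, 20 and 7 and 0, 2, 2 and 0 (log2 fold change -3.67 ± 0.63 SE, limma adjusted p = 0.00171). Of 14 genes of antigen presentation on MHC class II, 9 rose and none fell (median 1.95). H2-Ab1, a class II chain, had 84, 24, 51 and 218 reads in controls and 1066, 1108, 970 and 1889 with IL4, and Ciita, the master regulator of the class, had 18, 7, 11 and 31 and 93, 73, 79 and 181 (log2 fold change 3.02 ± 0.44 SE, limma adjusted p = 0.001). The class II mean over members was -0.19 in control 4 and -1.54 to -1.11 in the other controls, with the IL4 libraries at 0.77 to 1.49. Of 21 class I genes 1 rose (4.8%, against 7.96% over all genes) and 2 fell (9.5%, against 12.7%). Only 1 fell without IL4 library 1 or 4 or without any single control. H2-T23 rose (log2 fold change 1.51 ± 0.24 SE, limma adjusted p = 0.00254), and the class I regulator Nlrc5 fell from 58, 19, 25 and 16 to 6, 6, 2 and 3 reads.

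Ligands that restrain or stimulate T cells also moved separately. Cd274 (PD-L1) rose from 37, 19, 29 and 62 to 317, 296, 264 and 152 reads (log2 fold change 3.14 ± 0.32 SE, limma adjusted p = 9.48e-05), beside the larger change of Pdcd1lg2, while Icosl fell from 30, 23, 19 and 7 to 0, 1, 0 and 0 (log2 fold change -4.49 ± 0.54 SE, limma adjusted p = 0.000223). Of 21 genes of this list 3 rose (5 without both libraries numbered 4) and 6 fell. The CD47 axis, named in the series title, moved little. Cd47, the signal that protects a cell from engulfment, had 119, 82, 69 and 89 reads in controls and 142, 127, 103 and 109 with IL4, a log2 fold change of 0.72 ± 0.12 (limma adjusted p = 0.0321). The call was lost without control 1, control 3 or IL4 library 1, 2 or 4. Its receptor gene on macrophages, Sirpa, had deposited log2 values of 9.70, 9.57, 9.70 and 9.69 in controls and 8.79, 8.69, 8.65 and 8.77 with IL4 and fell (log2 fold change -0.58 ± 0.10 SE, limma adjusted p = 0.00248).

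**Figure D2:**
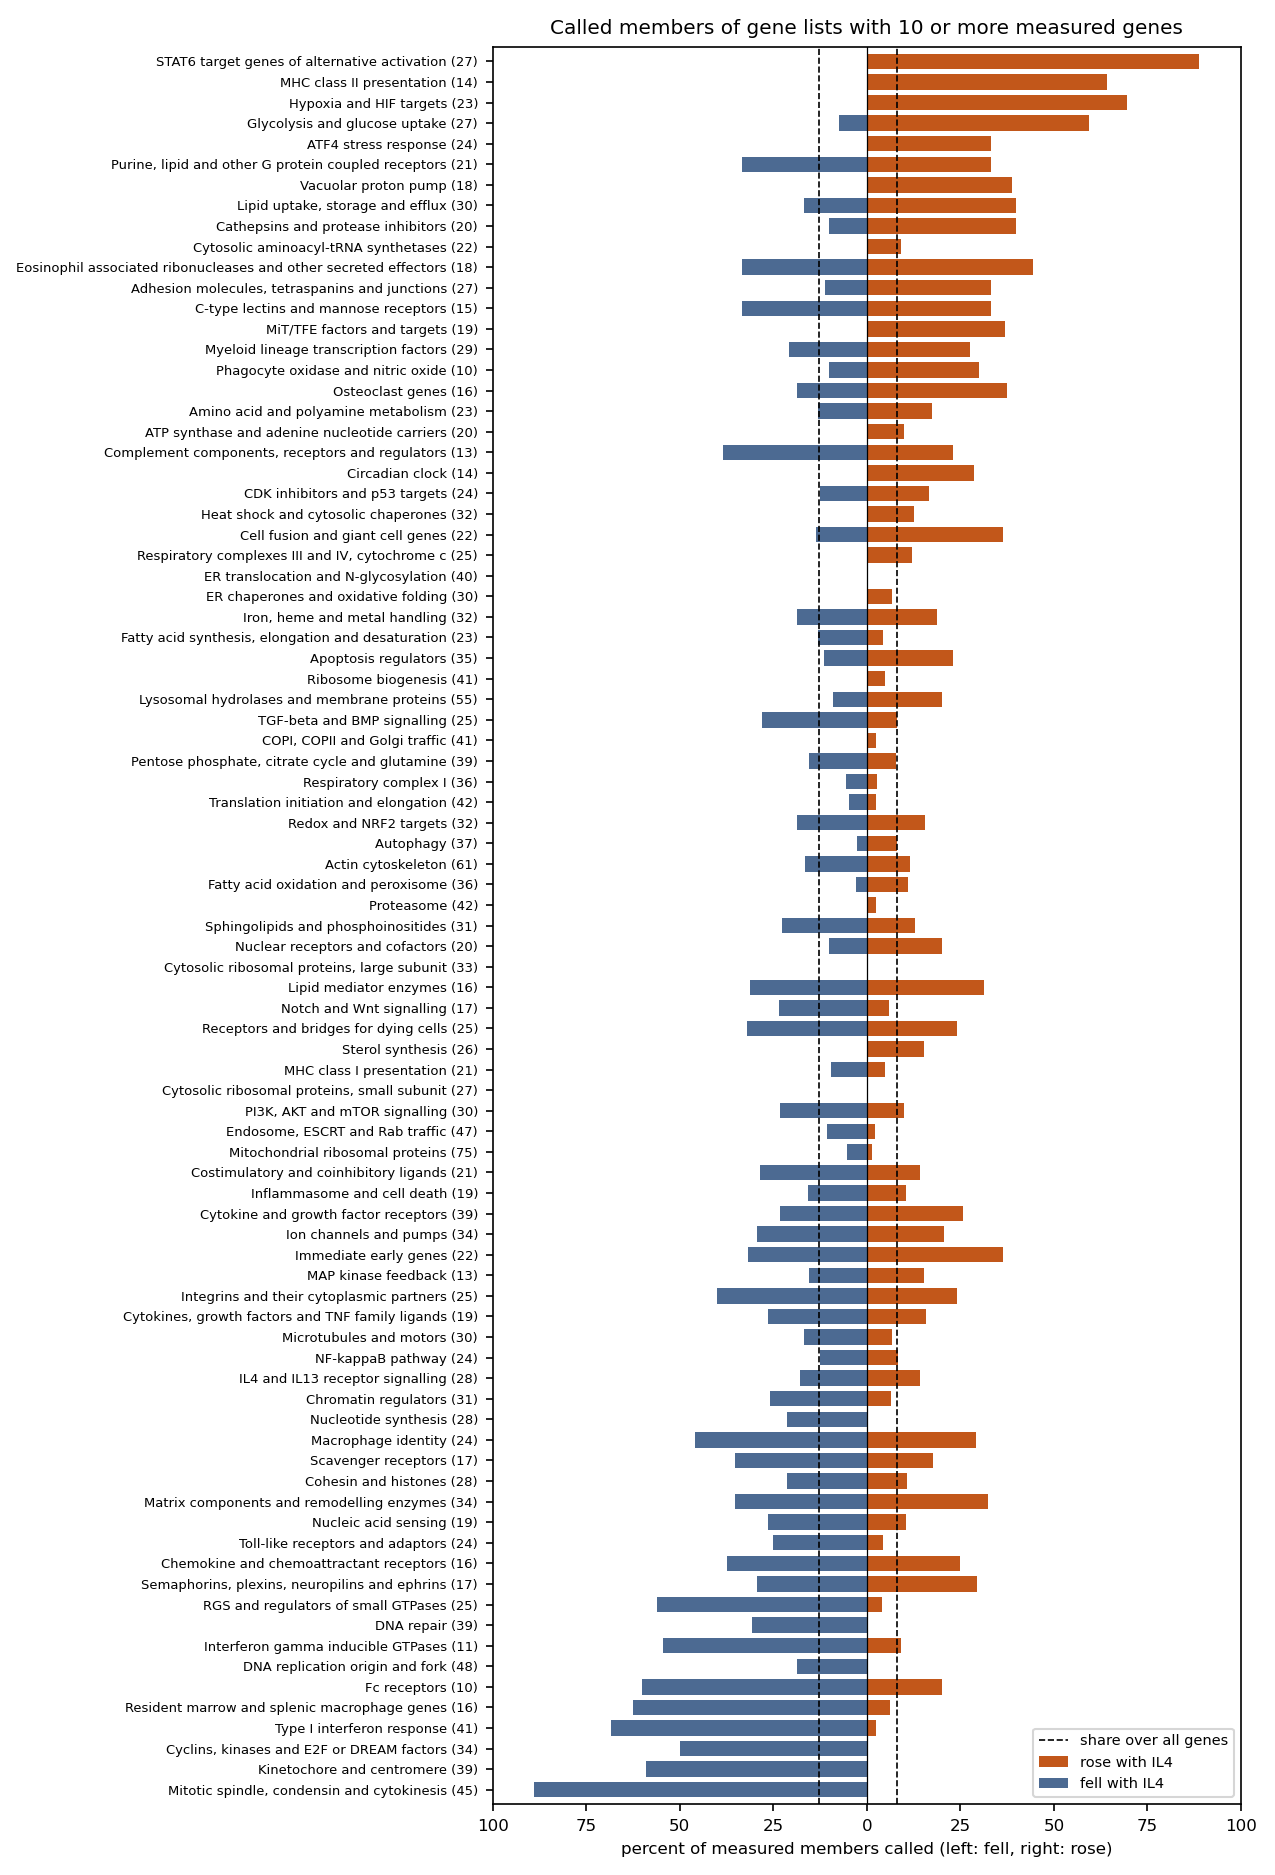
Percent of measured members that rose (orange, right) or fell (blue, left) in each gene list with at least 10 measured genes, with dashed lines at the shares over all genes, 7.96% and 12.7%. STAT6 targets (88.9%), hypoxia (69.6%), MHC class II presentation (64.3%) and glycolysis genes (59.3%) reach farthest to the right, and spindle (88.9%) and type I interferon genes (68.3%) reach farthest to the left.

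Genes of the response to low oxygen rose together. This program is run by the HIF transcription factors, whose protein is destroyed in the presence of oxygen by the EGLN prolyl hydroxylases and the VHL ligase, and many of its targets serve glycolysis, mitochondrial removal and blood vessel growth. Of 23 measured genes 16 rose and none fell (median 1.55), and 14 to 16 rose when single libraries were left out. Slc2a1, Pdk1 and Pfkfb3 also belong to the glycolysis list and Ddit4 to the ATF4 list.

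Egln3, a prolyl hydroxylase and itself a HIF target, had 1, 2, 3 and 1 reads in controls and 106, 105, 129 and 22 with IL4, a ratio of 63.2 (95% counting interval 30.3 to 158). Vegfa, the vascular growth factor, had 60, 48, 30 and 115 and 546, 472, 427 and 129 (log2 fold change 2.89 ± 0.46 SE, limma adjusted p = 0.00164). Ero1l, an oxidase of protein folding in the endoplasmic reticulum, had 35, 44, 36 and 31 and 240, 282, 181 and 44 (log2 fold change 2.34 ± 0.45 SE, limma adjusted p = 0.00675). In all 3 genes IL4 library 4 was much lower than the other IL4 libraries. Bnip3 (log2 fold change 2.39 ± 0.31 SE, limma adjusted p = 0.000705) and Bnip3l (log2 fold change 1.58 ± 0.20 SE, limma adjusted p = 0.000793), which mark mitochondria for removal, rose, as did P4ha1, a collagen prolyl hydroxylase (1.77 ± 0.31), and Mxi1, an antagonist of MYC (1.66 ± 0.29). Of the factors themselves, Epas1 (HIF2A) had 2, 5, 7 and 10 reads in controls and 33, 47, 49 and 24 with IL4 (log2 fold change 2.98 ± 0.49 SE, limma adjusted p = 0.00236), while Hif1a (-0.04 ± 0.15), Arnt (0.03 ± 0.17) and Vhl (0.21 ± 0.27) were not called. The promoter stretches of Egln3, Bnip3, Ero1l and Mxi1 above hold the letters of the HIF core. In Bnip3 these letters lie within the E box CACGTG, which other factors also bind. The list mean was 0.16 in IL4 library 4, 0.92 to 1.08 in the other IL4 libraries and -0.93 to -0.65 in controls.

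Glycolysis followed the same pattern by library. Of 27 genes of glycolysis and glucose uptake 16 rose and 2 fell (median 1.44). The list mean was 0.06 in IL4 library 4, 0.69 to 0.72 in the other IL4 libraries and -0.60 to -0.50 in controls. Slc16a3, the exporter of lactate, had 43, 29, 28 and 19 reads in controls and 193, 247, 157 and 66 with IL4 (log2 fold change 2.64 ± 0.31 SE, limma adjusted p = 0.000519). Hk2, which starts glycolysis by phosphorylating glucose, had 66, 47, 49 and 66 and 207, 218, 168 and 80 (log2 fold change 1.75 ± 0.24 SE, limma adjusted p = 0.00134). Isoforms of phosphofructokinase parted: Pfkp (2.19 ± 0.17) and Pfkl (1.87 ± 0.28) rose, while Pfkm, the muscle form, fell from 18, 17, 14 and 21 to 4, 4, 3 and 1 reads (log2 fold change -2.19 ± 0.32 SE, limma adjusted p = 0.000736). Pfkfb2, which sets the level of a phosphofructokinase activator, also fell (-0.88 ± 0.21).

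Other carbon metabolism was called about as often as all genes. Of 39 genes of the pentose phosphate pathway, citrate cycle and glutamine use 3 rose (7.7%, against 7.96% over all genes) and 6 fell (15.4%, against 12.7%), and 1 rose without control 1 or without both libraries numbered 4. G6pdx, the first enzyme of the pentose phosphate pathway, fell (log2 fold change -0.62 ± 0.15 SE, limma adjusted p = 0.0103), and so did Taldo1 (log2 fold change -0.73 ± 0.11 SE, limma adjusted p = 0.000696) from the same pathway. Suclg2, a subunit of succinyl-CoA synthetase, fell from 13, 21, 19 and 7 to 0, 3, 3 and 0 reads. Of 36 genes of respiratory complex I 1 rose and 2 fell, a smaller share than among all genes in both directions. The falls were 0 without control 1, 2 or 3 or IL4 library 1 or 2, and 1 without IL4 library 3.

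**Figure D3:**
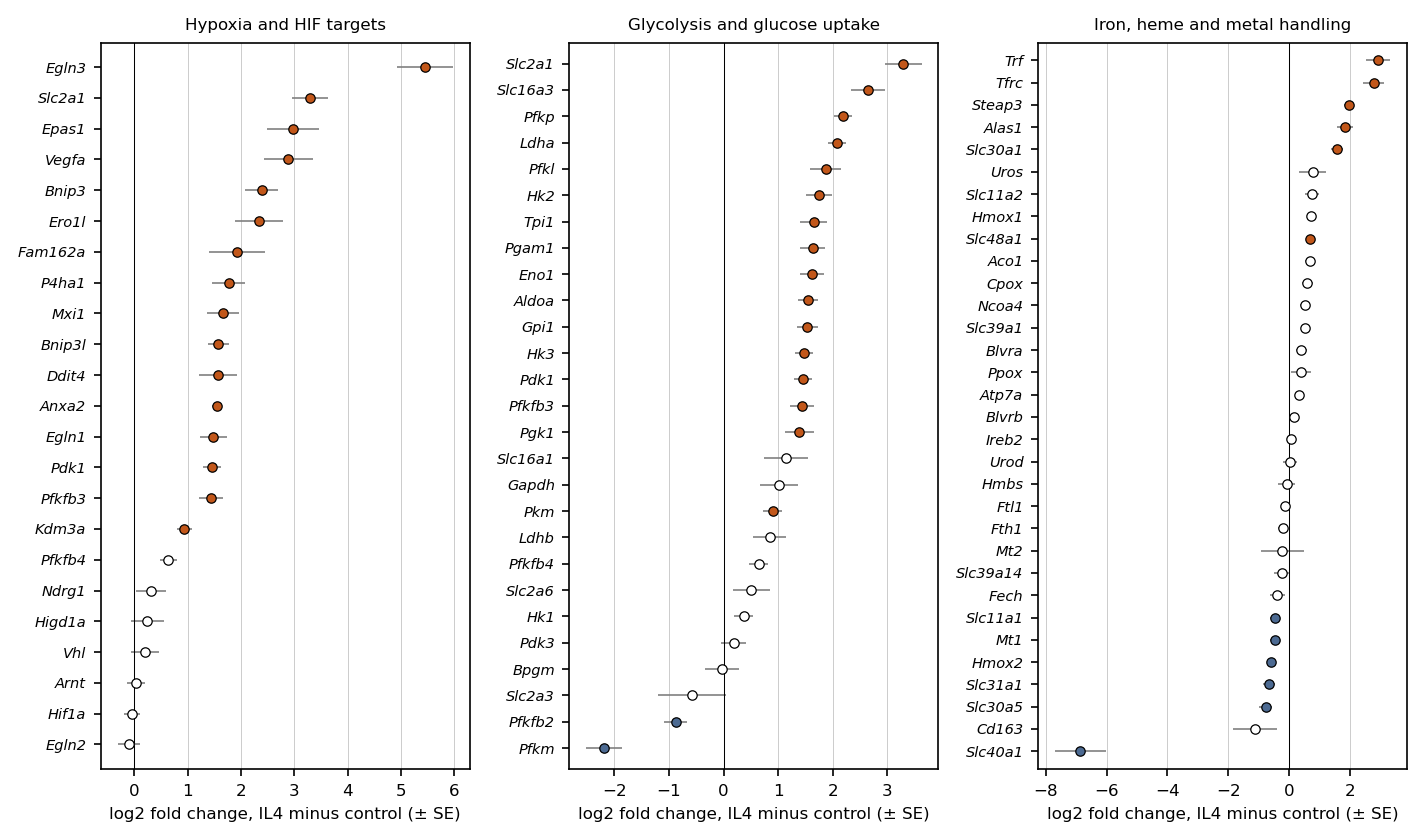
Log2 fold change, IL4 minus control after centring, with its standard error (bars), for every measured gene of the hypoxia, glycolysis and iron lists; orange points rose, blue points fell and white points were not called. Most hypoxia and glycolysis genes lie to the right of 0, while the iron list runs from Slc40a1 at the far left to Trf and Tfrc at the right.

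Genes of the ATF4 stress response, which is switched on by amino acid shortage and other stresses, rose in part. Of 24 genes 8 rose and none fell (median 0.85), but the count was 15 without IL4 library 4, 15 without both libraries numbered 4, and 5 without IL4 library 1. The list mean was -0.32 in IL4 library 4 and at least 0.77 in the other IL4 libraries. Trib3, a pseudokinase, had 3, 1, 3 and 2 reads in controls and 29, 45, 33 and 6 with IL4 (log2 fold change 3.44 ± 0.51 SE, limma adjusted p = 0.00128). Gpt2, an alanine transaminase, had 19, 9, 8 and 18 and 148, 151, 121 and 46 (log2 fold change 3.30 ± 0.36 SE, limma adjusted p = 0.000167). Slc7a11, the cystine importer, had 2, 4, 2 and 9 and 28, 48, 34 and 26 (log2 fold change 3.33 ± 0.47 SE, limma adjusted p = 0.00084). Atf4 itself was not called (0.57 ± 0.21).

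Lipid handling genes rose more often than they fell. Of 30 genes of uptake, storage and export 12 rose, 5 fell and 13 were not called. The falls were 2 without control 1 or IL4 library 1 or 2, and 3 without control 2, 3 or 4 or IL4 library 3. Hilpda, a lipid droplet protein and HIF target, had 2, 5, 6 and 2 reads in controls and 89, 135, 69 and 7 with IL4 (log2 fold change 3.98 ± 0.76 SE, limma adjusted p = 0.00467). Mgll, which releases fatty acids from monoacylglycerol, had 1, 1, 1 and 8 and 24, 22, 23 and 54 (log2 fold change 3.93 ± 0.63 SE, limma adjusted p = 0.00157). In these 2 genes library 4 of the IL4 group was an extreme, lowest for Hilpda and highest for Mgll. The cholesterol exporter gene Abcg1 had 104, 24, 58 and 229 reads in controls and 556, 505, 445 and 560 with IL4 (log2 fold change 3.03 ± 0.52 SE, limma adjusted p = 0.00225). The scavenger receptor gene Cd36 had deposited log2 values of 8.55, 7.95, 8.57 and 9.70 and 10.30, 10.43, 10.57 and 10.26 (log2 fold change 2.06 ± 0.33 SE, limma adjusted p = 0.00176). Apoc2, an apolipoprotein that activates lipoprotein lipase, fell from 16, 11, 13 and 22 to 0, 2, 1 and 2 reads. The other falls were the apolipoprotein gene Apoe, the lipoprotein receptor genes Scarb1 and Apobr, and Acat1. Fatty acid synthesis showed 1 rise, the desaturase Scd2 (log2 fold change 3.90 ± 0.22 SE, limma adjusted p = 2.43e-06), and 3 falls among 23 genes, of which Elovl6, an elongase, went from 7, 10, 9 and 12 to 0, 0, 1 and 1 reads (log2 fold change -3.23 ± 0.48 SE, limma adjusted p = 0.000802) and Lpcat2, which makes platelet activating factor, from 122, 90, 78 and 66 to 15, 22, 15 and 13 (log2 fold change -2.13 ± 0.19 SE, limma adjusted p = 4.30e-05). Of 26 sterol synthesis genes 4 rose, led by Dhcr7 (1.57 ± 0.26) and Mvd (1.38 ± 0.28), and none fell (1 at an unadjusted p under 0.05, 0 with voom and 1 without control 4).

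Among iron genes, those of transferrin and its receptor rose and the gene of the exporter fell. Macrophages recycle iron from red cells and release it through ferroportin, and take up transferrin-bound iron through the transferrin receptor. Of 32 genes of iron, heme and metal handling 6 rose and 6 fell. Slc11a1 was among the falls (-0.48, a call lost without any of 4 single libraries), and Slc11a2 and Slc39a14 were not called. The fall of Slc40a1 is given above. Trf, transferrin, had deposited log2 values of 8.47, 7.83, 8.23 and 9.86 in controls and 11.07, 10.88, 11.19 and 11.51 with IL4 (log2 fold change 2.93 ± 0.39 SE, limma adjusted p = 0.000516). The transferrin receptor gene Tfrc had 102, 99, 76 and 42 reads in controls and 382, 315, 359 and 771 with IL4 (log2 fold change 2.77 ± 0.35 SE, limma adjusted p = 0.000754), with no overlap and with IL4 library 4 the highest. Steap3, a reductase that prepares endosomal iron for transport, rose (log2 fold change 1.96 ± 0.17 SE, limma adjusted p = 9.24e-05), and so did Alas1, the first enzyme of heme synthesis (log2 fold change 1.84 ± 0.27 SE, limma adjusted p = 0.00126). The ferritin genes Fth1 (-0.22 ± 0.14) and Ftl1 (-0.15 ± 0.14) and the heme oxygenase gene Hmox1 (0.72 ± 0.13) were not called. The count of falls was 3 without control 3 or without IL4 library 1. Redox genes were mixed, with 5 rises and 6 falls among 32, and 3 rises without control 3 or IL4 library 3. Gpx1, a glutathione peroxidase, rose (log2 fold change 1.37 ± 0.11 SE, limma adjusted p = 0.000135), while Gclm, a subunit of the enzyme that makes the glutathione precursor (log2 fold change -1.62 ± 0.19 SE, limma adjusted p = 0.000192), Sod1 (log2 fold change -0.99 ± 0.14 SE, limma adjusted p = 0.000538) and the catalase gene Cat fell.

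Transcription factor genes included several large changes. Of 29 factors of the myeloid lineage 8 rose and 6 fell, with 5 rises without IL4 library 1. Bhlhe40, a helix-loop-helix repressor, had 22, 15, 11 and 45 reads in controls and 422, 448, 313 and 222 with IL4 (log2 fold change 4.31 ± 0.37 SE, limma adjusted p = 2.94e-05). Nfil3, a basic leucine zipper repressor, had 7, 3, 7 and 4 and 77, 99, 68 and 57 (log2 fold change 4.05 ± 0.30 SE, limma adjusted p = 2.27e-05). Irf4, an interferon regulatory factor that acts in alternative activation, had 6, 4, 4 and 11 and 71, 70, 59 and 63 (log2 fold change 3.68 ± 0.28 SE, limma adjusted p = 1.57e-05). None of these 3 overlapped. Maf fell from 400, 354, 311 and 227 to 24, 14, 17 and 12 reads (log2 fold change -3.97 ± 0.21 SE, limma adjusted p = 1.36e-06), and Mef2a (-1.31 ± 0.15) and Fli1 (-1.10 ± 0.15) fell. The lineage factor Spi1 was not called (0.49 ± 0.15).

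Bhlhe40 and Nfil3 also belong to the circadian clock, where they repress clock targets. Of 14 clock genes 4 rose and none fell, 2 rose without IL4 library 1 or 2, and 1 fell without control 4. Clock (-0.04 ± 0.23), Arntl (0.94 ± 0.30), Per1 (0.94 ± 0.21) and Dbp (-0.22 ± 0.20) were not called. Among nuclear receptors, Pparg, which controls lipid genes, had 30, 18, 17 and 44 reads in controls and 93, 83, 70 and 82 with IL4 (log2 fold change 1.95 ± 0.27 SE, limma adjusted p = 0.000878), and its partner Rxra fell (log2 fold change -0.88 ± 0.14 SE, limma adjusted p = 0.00119). Thra, a thyroid hormone receptor, rose (1.43 ± 0.26). Among 31 chromatin regulators 2 rose and 8 fell. The risers were the DNA methyltransferase Dnmt3a (187, 86, 129 and 258 reads in controls and 540, 498, 381 and 346 with IL4; log2 fold change 1.79 ± 0.27 SE, limma adjusted p = 0.00152) and the histone demethylase Kdm6b (log2 fold change 1.56 ± 0.32 SE, limma adjusted p = 0.0128), and the maintenance methyltransferase Dnmt1 fell (-0.57 ± 0.14). The falls were 3 without control 1, 2 or 3, 4 without IL4 library 1 or 2, and 5 without IL4 library 3.

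Immediate early genes, which respond within minutes to signals through kinases, did not move as a block. Of 22 genes 8 rose (36.4%, against 7.96% over all genes) and 7 fell (31.8%, against 12.7%). The groups were separate in every called gene of this list, but they also were in 1778 of all 1959 called genes. Egr2 had 26, 19, 22 and 102 reads in controls and 253, 278, 202 and 244 with IL4 (log2 fold change 3.16 ± 0.46 SE, limma adjusted p = 0.000855), whereas its relative Egr1 had 322, 305, 279 and 294 and 36, 57, 39 and 16 (log2 fold change -2.85 ± 0.28 SE, limma adjusted p = 6.68e-05). In the AP-1 family, Jun (log2 fold change 1.15 ± 0.15 SE, limma adjusted p = 0.00164), Jund (1.48 ± 0.20), Fosl2 (1.78 ± 0.18) and Atf3 (2.28 ± 0.41) rose and Fos fell (log2 fold change -1.51 ± 0.13 SE, limma adjusted p = 3.25e-05). Phosphatases that switch off MAP kinases were also opposed, Dusp4 rising from 15, 6, 6 and 8 to 158, 171, 153 and 55 reads (log2 fold change 4.11 ± 0.31 SE, limma adjusted p = 2.01e-05) and Dusp6 falling from 155, 136, 112 and 109 to 12, 18, 9 and 19 (log2 fold change -2.87 ± 0.24 SE, limma adjusted p = 2.61e-05).

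Some targets and receptors of TGF-beta and BMP signalling fell. Of 25 genes 2 rose, 7 fell and 16 were not called, and the median was 0.15. The target genes Id1 (37, 35, 29 and 26 reads in controls and 1, 1, 0 and 2 with IL4; log2 fold change -4.35 ± 0.40 SE, limma adjusted p = 5.13e-05) and Id3 fell most. The TGF-beta receptor chains fell as well, Tgfbr1 from 353, 249, 275 and 422 to 103, 84, 115 and 97 reads (log2 fold change -1.40 ± 0.20 SE, limma adjusted p = 0.000603) and Tgfbr2 from 218, 155, 167 and 147 to 62, 46, 40 and 50 (log2 fold change -1.51 ± 0.13 SE, limma adjusted p = 3.88e-05). Acvrl1, a type I receptor for BMP9, rose (log2 fold change 1.32 ± 0.19 SE, limma adjusted p = 0.00265). Of 17 Notch and Wnt genes 4 fell and 1 rose (2 without control 4 or IL4 library 4, and 3 without both): Notch1 (log2 fold change -1.60 ± 0.16 SE, limma adjusted p = 7.68e-05), Notch2 (-0.92 ± 0.14), Lrp5 (log2 fold change -2.60 ± 0.34 SE, limma adjusted p = 0.000354) and Lrp6 (-1.10 ± 0.13) fell and the Wnt receptor gene Fzd7 rose (log2 fold change 1.84 ± 0.37 SE, limma adjusted p = 0.00734).

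Acidification and lysosome genes rose in part. The vacuolar proton pump acidifies lysosomes and, in osteoclasts, the space over bone. Of its 18 measured genes 7 rose and none fell (median 0.60), with 5 to 8 rises when a library was left out. Atp6v0d2, a subunit found mainly in osteoclasts and other fused macrophages, had 171, 54, 93 and 572 reads in controls and 1488, 1500, 1403 and 1341 with IL4 (log2 fold change 3.54 ± 0.56 SE, limma adjusted p = 0.00131), while the general form Atp6v0d1 was not called (0.05 ± 0.13). Control 4 was the highest control in Atp6v0d2 and in Atp6v0a1 (379, 226, 265 and 587 in controls, 1067, 1014, 944 and 987 with IL4; log2 fold change 1.84 ± 0.25 SE, limma adjusted p = 0.000818). Of 19 genes of the MiT/TFE factors, which drive lysosome genes, and their targets, 7 rose and none fell (2 at an unadjusted p under 0.05 and 0 with voom). Mitf, a factor of osteoclasts and melanocytes, rose (log2 fold change 1.35 ± 0.26 SE, limma adjusted p = 0.00803), while Tfeb (0.20 ± 0.22) and Tfe3 (-0.16 ± 0.12) were not called.

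Among lysosomal proteases, Ctsk, the collagen-degrading cathepsin of osteoclasts, had 8, 11, 14 and 18 reads in controls and 357, 306, 294 and 289 with IL4 (log2 fold change 4.89 ± 0.30 SE, limma adjusted p = 4.45e-06). The acid phosphatase gene Acp5 had 5, 7, 20 and 14 and 296, 312, 207 and 142 (log2 fold change 4.72 ± 0.44 SE, limma adjusted p = 6.25e-05). Ctss, a cathepsin that processes the class II invariant chain, had deposited log2 values of 8.92, 8.47, 8.59 and 9.98 in controls and 10.44, 10.45, 10.44 and 10.55 with IL4 (log2 fold change 1.84 ± 0.31 SE, limma adjusted p = 0.00248). Ctsc, which activates granule proteases, moved against these, from 587, 452, 433 and 281 to 69, 75, 69 and 100 reads (log2 fold change -2.17 ± 0.21 SE, limma adjusted p = 7.68e-05). Of 20 cathepsins and protease inhibitors 8 rose (3 with voom, which covers only genes with recovered reads) and 2 fell, and of 55 hydrolases and membrane proteins of the lysosome 11 rose and 5 fell. Sgsh, a heparan sulfatase, fell (log2 fold change -1.85 ± 0.18 SE, limma adjusted p = 6.94e-05), while Gm2a, a lysosomal cofactor gene, rose (log2 fold change 1.86 ± 0.21 SE, limma adjusted p = 0.000211). Of 47 genes of endosomes and Rab traffic 1 rose and 5 fell, smaller shares than the 7.96% and 12.7% over all genes. The rise was Rab11fip1 (0.91, a call lost without control 1 or 3 or IL4 library 2, 3 or 4). Among the falls, Rab32, which acts in lysosome-related organelles, went from 264, 230, 238 and 157 to 17, 18, 23 and 19 reads (log2 fold change -3.20 ± 0.20 SE, limma adjusted p = 3.71e-06). Of 37 autophagy genes 3 rose and 1 fell (3 without control 2, and 2 without IL4 library 2 or 4), among the rises Gabarapl1 (1.01 ± 0.18). The share of rises was near the 7.96% over all genes, and that of falls was below 12.7%.

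Of 22 cell fusion and giant cell genes 8 rose (5 with voom) and 3 fell (5 without both libraries numbered 4). Itgb3, the integrin beta chain of osteoclasts and platelets, had 12, 7, 7 and 8 reads in controls and 202, 257, 171 and 141 with IL4 (log2 fold change 4.70 ± 0.15 SE, limma adjusted p = 3.09e-08), the groups far apart. Car2, the carbonic anhydrase that supplies protons to osteoclasts, had 1, 0, 1 and 0 and 22, 31, 13 and 6, a ratio of 44 (95% counting interval 11.7 to 370.0). In a separate list of osteoclast genes 6 rose, 3 fell and 7 were not called, and over all genes 7.96% rose and 12.7% fell. Among the falls of that list were the RANK gene Tnfrsf11a (log2 fold change -0.97 ± 0.16 SE, limma adjusted p = 0.00144) and the osteoclast factor Nfatc1 (log2 fold change -1.21 ± 0.27 SE, limma adjusted p = 0.00811). Mmp9 was not called (0.98 ± 0.54).

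Matrix genes moved in both directions. Of 34 matrix genes 11 rose and 12 fell. The rises held metalloproteases and also the matrix proteins Fn1 and Ecm1 (log2 fold change 1.07 ± 0.14 SE, limma adjusted p = 0.00525) and the protease inhibitor Timp2 (log2 fold change 1.46 ± 0.12 SE, limma adjusted p = 8.90e-05). The falls held collagens and also the proteases Adam17 (-0.48, a call lost without control 3), Adam19 (-1.97 ± 0.48) and Plau (-0.74, a call lost without IL4 library 1). Mmp12, the macrophage elastase, had deposited log2 values of 9.28, 7.82, 8.72 and 11.33 in controls and 14.15, 14.35, 14.26 and 13.31 with IL4 (log2 fold change 5.09 ± 0.63 SE, limma adjusted p = 0.000281). Mmp13, a collagenase, had 43, 28, 55 and 45 reads in controls and 1457, 2271, 1048 and 150 with IL4 (log2 fold change 4.62 ± 0.64 SE, limma adjusted p = 0.000737), with IL4 library 4 lowest by far but above every control. Mmp19 had 68, 28, 30 and 66 and 366, 396, 317 and 300 (log2 fold change 3.22 ± 0.24 SE, limma adjusted p = 1.34e-05). The collagen genes Col1a1 (255, 406, 236 and 232 reads in controls and 23, 57, 36 and 31 with IL4; log2 fold change -2.68 ± 0.30 SE, limma adjusted p = 0.000145), Col1a2 (286, 491, 249 and 277 and 26, 62, 34 and 37; log2 fold change -2.76 ± 0.30 SE, limma adjusted p = 0.000139) and Col5a1 (57, 82, 43 and 33 and 2, 4, 8 and 5; log2 fold change -3.14 ± 0.40 SE, limma adjusted p = 0.000316) fell, and so did the matrix protein Sparc (68, 146, 74 and 98 and 1, 23, 13 and 13; log2 fold change -3.09 ± 0.75 SE, limma adjusted p = 0.0115).

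Col1a1, Col1a2 and Sparc are also members of the list of endothelial and stromal markers. Of 21 endothelial and stromal markers 7 were measured, and their summed reads were 702 to 1315 in controls and 130 to 241 with IL4. Tagln, a smooth muscle and fibroblast marker, had 13, 36, 25 and 18 reads in controls and 3, 0, 0 and 0 with IL4, and Bgn had 111, 178, 64 and 86 and 8, 14, 20 and 12. The sum was highest in control 2. It includes the reads of Col1a1, Col1a2 and Sparc and so follows them by construction, while Tagln and Bgn stand outside the matrix list. The part of stromal cells in the fall of matrix genes was not tested. Pecam1, which endothelial cells, platelets and leukocytes carry, moved the other way, from 1, 0, 0 and 1 to 17, 22, 27 and 9 reads, a ratio of 45.8 (95% counting interval 12.2 to 385).

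Interferon response genes fell widely. Type I interferon acts through a complex that holds STAT2 and IRF9 on genes that block viruses, and macrophages keep a low level of this program at rest. Of 41 genes 28 fell and 1 rose (median -1.14), and 24 to 28 fell when single libraries were left out. Oas2, a sensor that makes a messenger for RNA degradation, had 115, 73, 52 and 32 reads in controls and 2, 0, 1 and 0 with IL4 (log2 fold change -5.69 ± 0.54 SE, limma adjusted p = 6.16e-05). Oas3 had 102, 39, 32 and 52 and 10, 4, 0 and 2 (log2 fold change -3.93 ± 0.72 SE, limma adjusted p = 0.00257). Rtp4 had 77, 42, 43 and 28 and 4, 0, 0 and 1 (log2 fold change -5.02 ± 0.64 SE, limma adjusted p = 0.000315). In each of these control 1 was the highest library. Ifit3 went from 17, 7, 6 and 4 to 0 in every IL4 library (at least 9.28-fold lower), and Ifitm3, which blocks virus entry, from 114, 56, 42 and 24 to 16, 6, 4 and 2 (log2 fold change -2.83 ± 0.52 SE, limma adjusted p = 0.00251). The factors of the pathway fell too: Irf7 had 31, 15, 7 and 7 and 4, 1, 0 and 0 (log2 fold change -3.22 ± 0.72 SE, limma adjusted p = 0.00807), and Stat2 had 68, 42, 64 and 40 and 35, 28, 12 and 16 (log2 fold change -1.02 ± 0.29 SE, limma adjusted p = 0.0266, a call lost without control 1, control 3 or IL4 library 3 or 4). Irf9 had 82, 58, 37 and 57 and 23, 31, 22 and 16 (log2 fold change -1.03 ± 0.20 SE, limma adjusted p = 0.00343). Usp18, which restrains the interferon receptor, rose against the rest, from 11, 4, 2 and 4 to 24, 35, 19 and 15 reads (log2 fold change 2.48 ± 0.35 SE, limma adjusted p = 0.00109). The list mean ran from 0.44 to 1.06 in controls and from -0.97 to -0.36 with IL4.

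Some sensors of microbes fell as well. Of 24 Toll-like receptor genes and adaptors 6 fell, 17 were not called and 1, Ticam2, rose. That rise was lost without control 1, 2 or 3 or IL4 library 1, 2 or 3. Tlr2, for bacterial lipoproteins, had 93, 92, 72 and 44 reads in controls and 5, 6, 1 and 6 with IL4 (log2 fold change -3.79 ± 0.43 SE, limma adjusted p = 0.00016). Tlr7, for single-stranded RNA, had 271, 179, 216 and 194 and 45, 64, 60 and 59 (log2 fold change -1.62 ± 0.16 SE, limma adjusted p = 8.35e-05). Tlr9, for CpG DNA, had 20, 28, 17 and 12 and 0, 4, 2 and 4 (log2 fold change -2.80 ± 0.66 SE, limma adjusted p = 0.0104). Tlr4 was not called (0.40 ± 0.17), although Cd14, its partner for endotoxin, fell (log2 fold change -1.37 ± 0.21 SE, limma adjusted p = 0.000818). Of 19 inflammasome and cell death genes 2 rose (10.5%, and 1 gene without control 3 or IL4 library 3 or with voom) and 3 fell (15.8%), shares near those over all genes, the falls being the sensors Nlrp3 (93, 77, 80 and 59 and 11, 9, 9 and 7; log2 fold change -2.75 ± 0.18 SE, limma adjusted p = 6.94e-06), Nlrp1b (-1.74 ± 0.25) and Nlrc4 (-1.19 ± 0.20). Casp1 (0.31 ± 0.15) and Pycard (0.25 ± 0.13), the shared effector and adaptor, were not called. Of 11 interferon gamma GTPase genes 6 fell and Gbp2 rose (2 rises without control 4), from 8, 13, 10 and 9 to 68, 71, 49 and 51 reads (log2 fold change 2.80 ± 0.33 SE, limma adjusted p = 0.00043). Families of near-identical genes such as Oas, Slfn and Gbp may share reads, and how the counting treated them is not given in the sources used here.

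**Figure D4:**
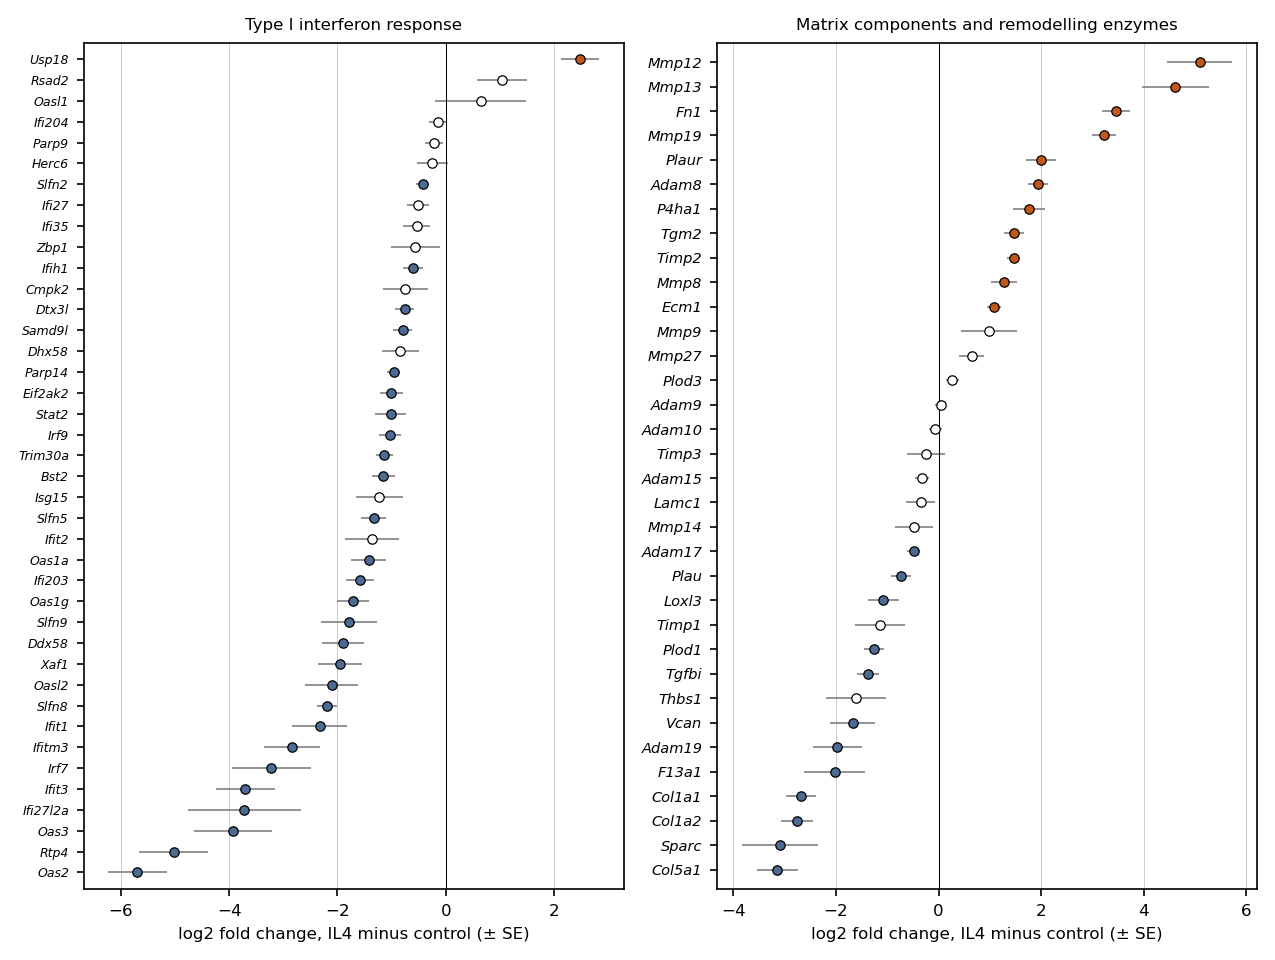
Log2 fold change, IL4 minus control after centring, with its standard error (bars), for measured genes of the type I interferon and matrix lists; orange points rose, blue points fell and white points were not called. Usp18 is the lone orange point of the interferon list, and the matrix list runs from Col5a1 and Sparc at the left to Mmp12 at the right.

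Phagocytic receptors moved in both directions. Of 25 receptors and bridges for dying cells 6 rose and 8 fell. Axl, a receptor kinase for dying cells, had 144, 98, 112 and 185 reads in controls and 3, 8, 3 and 11 with IL4 (log2 fold change -4.20 ± 0.43 SE, limma adjusted p = 8.67e-05), and its ligand Gas6 had 435, 358, 340 and 241 and 30, 25, 31 and 36 (log2 fold change -3.17 ± 0.19 SE, limma adjusted p = 3.02e-06). The related kinase Mertk had 152, 105, 102 and 163 and 57, 36, 38 and 70 (log2 fold change -1.11 ± 0.25 SE, limma adjusted p = 0.00855). Mfge8, a bridge between phosphatidylserine and integrins, rose from 111, 52, 67 and 314 to 1686, 1649, 679 and 711 (log2 fold change 3.63 ± 0.50 SE, limma adjusted p = 0.000578). Of 10 Fc receptor genes 2 rose and 6 fell. The rises were 1 with voom, and 1 without control 2, control 3 or IL4 library 1, 3 or 4, each of which ended the call of Fcgr4. The inhibitory receptor gene Fcgr2b had deposited log2 values of 11.73, 11.47, 11.49 and 11.94 in controls and 13.88, 13.89, 13.89 and 13.41 with IL4 (log2 fold change 2.47 ± 0.19 SE, limma adjusted p = 1.94e-05). The high-affinity activating receptor Fcgr1 had 164, 90, 83 and 133 and 28, 17, 8 and 15 reads (log2 fold change -2.55 ± 0.29 SE, limma adjusted p = 0.000181). Among complement genes, the C1q chains C1qa (log2 fold change -1.92 ± 0.23 SE, limma adjusted p = 0.000231), C1qb (-1.04 ± 0.20) and C1qc (-1.08 ± 0.17) fell with the receptor C5ar1 (-1.49 ± 0.16). Of 13 complement genes 3 rose, 1 without control 1 or without IL4 library 1, 2 or 3.

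Genes of macrophage identity did not move together. Of 24 genes 7 rose and 11 fell (3 and 7 with voom, limited to recovered reads). Emr1, a macrophage surface marker, had deposited log2 values of 14.35, 14.25, 14.18 and 14.05 in controls and 13.08, 12.88, 13.02 and 13.16 with IL4 (log2 fold change -0.81 ± 0.14 SE, limma adjusted p = 0.00181). Csf1r had 9.40, 9.36, 9.39 and 9.40 and 8.35, 8.19, 8.37 and 8.81 (log2 fold change -0.60 ± 0.14 SE, limma adjusted p = 0.00978). Lyz2, the macrophage lysozyme, had 12.01, 11.90, 11.95 and 11.86 and 9.58, 9.30, 9.61 and 10.24 (log2 fold change -1.88 ± 0.18 SE, limma adjusted p = 6.44e-05). No group overlapped in these 3 genes. Of 16 genes of resident marrow and spleen macrophages 10 fell and Igf1 alone rose (log2 fold change 1.18 ± 0.13 SE, limma adjusted p = 0.000481), with 2 rises without IL4 library 4.

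Receptors for soluble signals changed in both directions. Of 39 cytokine and growth factor receptor genes 10 rose and 9 fell. The GM-CSF and IL3 receptor chains Csf2rb (321, 179, 217 and 361 reads in controls and 1186, 1275, 967 and 632 with IL4; log2 fold change 2.20 ± 0.22 SE, limma adjusted p = 0.000106) and Csf2rb2 (2.48 ± 0.28) rose, as did Csf2ra, while Il17ra went from 102, 57, 62 and 83 to 7, 12, 4 and 11 (log2 fold change -2.88 ± 0.30 SE, limma adjusted p = 0.000101) and the IL10 receptor chain Il10ra fell (log2 fold change -0.96 ± 0.14 SE, limma adjusted p = 0.000795). Met, the receptor of hepatocyte growth factor, rose from 3, 8, 3 and 4 to 45, 47, 36 and 12 reads (log2 fold change 3.04 ± 0.48 SE, limma adjusted p = 0.00204), and Il6st, the shared chain of the IL6 family, from 143, 96, 102 and 167 to 576, 633, 461 and 486 (log2 fold change 2.39 ± 0.17 SE, limma adjusted p = 1.20e-05). Csf1, the growth factor supplied in the medium, is also transcribed by the cells, with 51, 106, 33 and 22 reads in controls and 8, 16, 12 and 2 with IL4 (log2 fold change -2.19 ± 0.59 SE, limma adjusted p = 0.0186). Of 9 measured chemokine genes 3 rose and 4 fell. Ccl24, an eosinophil attractant, had 0, 0, 1 and 0 and 37, 28, 11 and 27, a ratio of 126 (95% counting interval 22.1 to 5016), and Ccl6 had 171, 82, 90 and 160 and 770, 714, 619 and 802 (log2 fold change 2.87 ± 0.20 SE, limma adjusted p = 1.11e-05). Pf4 had 362, 332, 294 and 149 and 42, 41, 44 and 16 (log2 fold change -2.72 ± 0.32 SE, limma adjusted p = 0.000205).

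Among chemokine and chemoattractant receptors 4 of 16 rose and 6 fell, with 2 rises left without control 2, control 3 or IL4 library 1, 2 or 3. Ltb4r1, the leukotriene B4 receptor, had 3, 0, 0 and 1 reads in controls and 21, 28, 7 and 9 with IL4 (log2 fold change 4.03 ± 0.55 SE, limma adjusted p = 0.000567). Ccr2, the receptor that draws monocytes out of the marrow, had 144, 47, 129 and 122 and 7, 2, 10 and 29 (log2 fold change -3.27 ± 0.67 SE, limma adjusted p = 0.00491). S1pr1, a receptor for sphingosine phosphate, had 185, 119, 120 and 93 and 15, 24, 25 and 15 (log2 fold change -2.40 ± 0.22 SE, limma adjusted p = 4.55e-05). Of 21 purine, lipid and other G protein coupled receptors 7 rose and 7 fell (4 fell with the filter of 10 reads). Within purine receptors P2ry1, for ADP, rose from 10, 3, 3 and 14 to 42, 56, 44 and 62 (log2 fold change 3.23 ± 0.43 SE, limma adjusted p = 0.00051). P2ry13, another ADP receptor, fell from 21, 18, 18 and 20 to 0 in every IL4 library (at least 21-fold lower). The prostaglandin receptors also parted: Ptgir, for prostacyclin, rose from 6, 3, 4 and 4 to 40, 54, 48 and 28 (log2 fold change 3.45 ± 0.20 SE, limma adjusted p = 5.22e-06), Ptger2 rose (2.57 ± 0.24) and Ptger4 fell (-2.13 ± 0.27).

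Enzymes of lipid mediators changed beside these receptors, 5 of 16 rising and 5 falling. Hpgd, which breaks prostaglandins down, ended at 0 as given above. Hpgds, which makes prostaglandin D2, had 272, 225, 213 and 241 reads in controls and 14, 9, 13 and 18 with IL4 (log2 fold change -3.84 ± 0.27 SE, limma adjusted p = 1.04e-05). On the leukotriene branch, Alox5 (19, 26, 18 and 8 and 1, 2, 3 and 4; log2 fold change -2.33 ± 0.50 SE, limma adjusted p = 0.00602) and its partner Alox5ap (log2 fold change -1.12 ± 0.14 SE, limma adjusted p = 0.000296) fell, while Lta4h, which makes leukotriene B4, rose (log2 fold change 1.36 ± 0.19 SE, limma adjusted p = 0.00229). Ptgs1 was not called (0.02 ± 0.15). Sphk1, which makes sphingosine phosphate, rose from 2, 0, 1 and 1 to 19, 24, 9 and 5 reads (log2 fold change 3.56 ± 0.52 SE, limma adjusted p = 0.00104).

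Regulators of small GTPases mostly fell: 14 of 25 fell and 1 rose (2 without control 4; median -0.58), with 10 to 14 falls when a library was left out. Arhgap15, an inhibitor of Rac, had 61, 46, 62 and 43 reads in controls and 15, 10, 11 and 15 with IL4 (log2 fold change -1.74 ± 0.19 SE, limma adjusted p = 0.000124). Rgs10, which shortens G protein signals, had 187, 155, 144 and 166 and 54, 47, 45 and 61 (log2 fold change -1.37 ± 0.17 SE, limma adjusted p = 0.000232). The exchange factor Vav1 fell as well (log2 fold change -0.79 ± 0.12 SE, limma adjusted p = 0.00108), and Arhgap25 alone rose (log2 fold change 1.78 ± 0.41 SE, limma adjusted p = 0.0139). The changes of the called falls ran from -0.44 (Arhgap1, a call lost without any of 5 single libraries) to -2.14 (Rgs3, a call lost without control 1 or 3).

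Ion channels and pumps gave 7 rises and 10 falls among 34 genes. Several of the falls were calcium genes. Trpm2, a calcium channel opened by oxidative stress, had 29, 10, 28 and 7 reads in controls and 0 in every IL4 library (at least 20.2-fold lower). Slc8a1, the sodium and calcium exchanger, had 127, 98, 109 and 113 and 16, 16, 19 and 37 (log2 fold change -2.12 ± 0.31 SE, limma adjusted p = 0.000626), and the calcium release channels Itpr2 (log2 fold change -0.85 ± 0.14 SE, limma adjusted p = 0.00168) and Itpr3 (-1.79 ± 0.28) and the channel gene Orai2 (-1.89 ± 0.44) fell. Ryr1, a calcium release channel best known from muscle, was at 0 in every control and at 10, 3, 10 and 11 with IL4 (at least 13.8-fold higher). Kcnn4, a potassium channel opened by calcium, rose from 104, 76, 53 and 86 to 233, 228, 174 and 162 reads (log2 fold change 1.62 ± 0.16 SE, limma adjusted p = 0.000163).

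Adhesion and shape genes changed in both directions. Of 25 integrins and their cytoplasmic partners 6 rose and 10 fell. Beside Itgax, Itgb3 and Itgal, the beta chain Itgb2 rose (log2 fold change 1.67 ± 0.19 SE, limma adjusted p = 0.000224), and Itga6, a laminin receptor chain, fell from 556, 486, 485 and 333 to 83, 89, 82 and 48 reads (log2 fold change -2.35 ± 0.19 SE, limma adjusted p = 2.01e-05). Itga4 fell (log2 fold change -1.65 ± 0.16 SE, limma adjusted p = 7.68e-05) and Itgb1 was not called (0.16 ± 0.11). Zyx (log2 fold change 1.92 ± 0.13 SE, limma adjusted p = 1.63e-05) and Vcl (log2 fold change 1.53 ± 0.23 SE, limma adjusted p = 0.0037), proteins of adhesion sites, rose. Of 61 actin genes 7 rose and 10 fell, shares not far above the 7.96% and 12.7% over all genes. The formin Fmnl1 fell from 308, 173, 219 and 166 to 18, 21, 20 and 20 reads (log2 fold change -3.10 ± 0.14 SE, limma adjusted p = 4.69e-07) and its relative Fmnl2 rose from 14, 13, 17 and 14 to 38, 62, 32 and 34 (log2 fold change 1.72 ± 0.21 SE, limma adjusted p = 0.00097). Coro1a, a leukocyte coronin, fell from 568, 335, 423 and 238 to 77, 89, 84 and 49 (log2 fold change -2.07 ± 0.21 SE, limma adjusted p = 8.09e-05).

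Guidance molecules of the semaphorin family split evenly, 5 of 17 rising and 5 falling. Sema4b (7, 9, 4 and 11 reads in controls and 32, 40, 29 and 23 with IL4; log2 fold change 2.27 ± 0.30 SE, limma adjusted p = 0.00082) and Sema4a (1.58 ± 0.31) rose with the receptors Plxna1 (log2 fold change 1.36 ± 0.16 SE, limma adjusted p = 0.00037) and Plxnc1 (log2 fold change 1.46 ± 0.15 SE, limma adjusted p = 0.000257). Sema4d (log2 fold change -1.05 ± 0.18 SE, limma adjusted p = 0.00202) and Sema7a (6, 11, 8 and 7 and 1, 2, 1 and 1; log2 fold change -2.01 ± 0.36 SE, limma adjusted p = 0.00222) fell with the receptor Plxnb2 (log2 fold change -1.12 ± 0.11 SE, limma adjusted p = 7.99e-05). PLXNC1 is the receptor of SEMA7A, and that pair moved in opposite directions, while SEMA4D can bind PLXNB2, and both genes of that pair fell.

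Genes of cell division fell, and for spindle and kinetochore genes the libraries numbered 4 lay between the other libraries of the groups. Of 45 genes of the mitotic spindle, condensin and cytokinesis 40 fell and none rose (median -2.34). Control 4 had a list mean of -0.24, against 1.42 to 1.60 in the other controls, and IL4 library 4 had -0.54, against -1.39 to -1.22 in the other IL4 libraries, so control 4 was the lowest control and IL4 library 4 the highest of its group. Fam64a, a mitotic gene, had 71, 46, 51 and 8 reads in controls and 1, 1, 0 and 4 with IL4 (log2 fold change -4.25 ± 0.73 SE, limma adjusted p = 0.00181). Aspm, a spindle pole protein, had 108, 84, 87 and 20 and 7, 6, 4 and 4 (log2 fold change -3.23 ± 0.42 SE, limma adjusted p = 0.000349), Top2a had 347, 303, 361 and 83 and 30, 41, 31 and 45 (log2 fold change -2.42 ± 0.41 SE, limma adjusted p = 0.00156) and Kif2c, a motor that takes microtubules apart, had 67, 48, 45 and 15 and 4, 4, 1 and 10 (log2 fold change -2.93 ± 0.58 SE, limma adjusted p = 0.00384). Control 4 still lay above every IL4 library for Aspm. When single libraries were left out, 33 to 44 of these genes fell, and 44 fell without both libraries numbered 4.

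At the kinetochore, where chromosomes attach to the spindle, 23 of 39 genes fell and none rose (median -1.81), 31 at most when a library was left out and 34 without both libraries numbered 4. Spag5 had 70, 46, 54 and 12 reads in controls and 4, 1, 5 and 5 with IL4 (log2 fold change -3.08 ± 0.58 SE, limma adjusted p = 0.00299). Birc5, or survivin, had 77, 59, 49 and 20 and 2, 3, 6 and 8 (log2 fold change -3.03 ± 0.51 SE, limma adjusted p = 0.00152). Of 34 cyclins, kinases and E2F or DREAM factors 17 fell and none rose, with 8 falls without control 1 or 3, 9 without control 2 and 11 with the filter of 10 reads. E2f2 had 30, 20, 32 and 14 and 2, 3, 1 and 2 (log2 fold change -3.00 ± 0.36 SE, limma adjusted p = 0.000215), while Cdk4 (0.05 ± 0.17), Cdk6 (0.13 ± 0.23) and Rb1 (-0.21 ± 0.13) were not called.

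Of 48 DNA replication genes of origins and forks 9 fell and none rose (1 rose at an unadjusted p under 0.05, with voom and without control 4; median -0.79), but 22 fell without control 4, 16 without IL4 library 4, 28 without both, and 5 without control 1 or 2. Mcm6, a subunit of the replicative helicase, had 135, 122, 136 and 48 reads in controls and 26, 30, 42 and 36 with IL4 (log2 fold change -1.33 ± 0.33 SE, limma adjusted p = 0.0121). Mcm10 had 33, 7, 25 and 6 and 2, 3, 3 and 2 (log2 fold change -1.99 ± 0.46 SE, limma adjusted p = 0.00916). Among nucleotide synthesis genes 6 of 28 fell, with Rrm2, a subunit of ribonucleotide reductase, going from 83, 80, 57 and 23 to 9, 16, 11 and 10 reads (log2 fold change -1.95 ± 0.34 SE, limma adjusted p = 0.00189). Of 39 DNA repair genes 12 fell (6 with the filter of 10 reads) and none rose. In several of these lists the mean of control 4 lay within the range of the IL4 libraries. It was -0.29 for replication (IL4 -0.61 to -0.12) and -0.22 for nucleotide synthesis (-0.37 to -0.10). It was -0.15 for DNA repair (-0.63 to -0.09) and -0.11 for cohesin and histone genes (-0.22 to -0.09). The nuclear lamina gene Lmnb1 fell (137, 96, 124 and 27 and 13, 10, 6 and 13; log2 fold change -2.68 ± 0.44 SE, limma adjusted p = 0.00143), and the histone genes Hist1h2bc (log2 fold change 2.22 ± 0.32 SE, limma adjusted p = 0.00112) and Hist1h1c (log2 fold change 1.70 ± 0.18 SE, limma adjusted p = 0.000308), which give polyadenylated transcripts, rose. Of 24 inhibitors of cyclin-dependent kinases and p53 targets 4 rose and 3 fell, with 5 falls without control 4, without both libraries numbered 4 and with voom. Plk2 rose from 104, 40, 47 and 171 to 587, 624, 464 and 273 reads (log2 fold change 2.88 ± 0.40 SE, limma adjusted p = 0.000711) and Cdkn2c fell from 33, 25, 19 and 11 to 3, 4, 2 and 2 (log2 fold change -2.45 ± 0.29 SE, limma adjusted p = 0.000209).

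**Figure D5:**
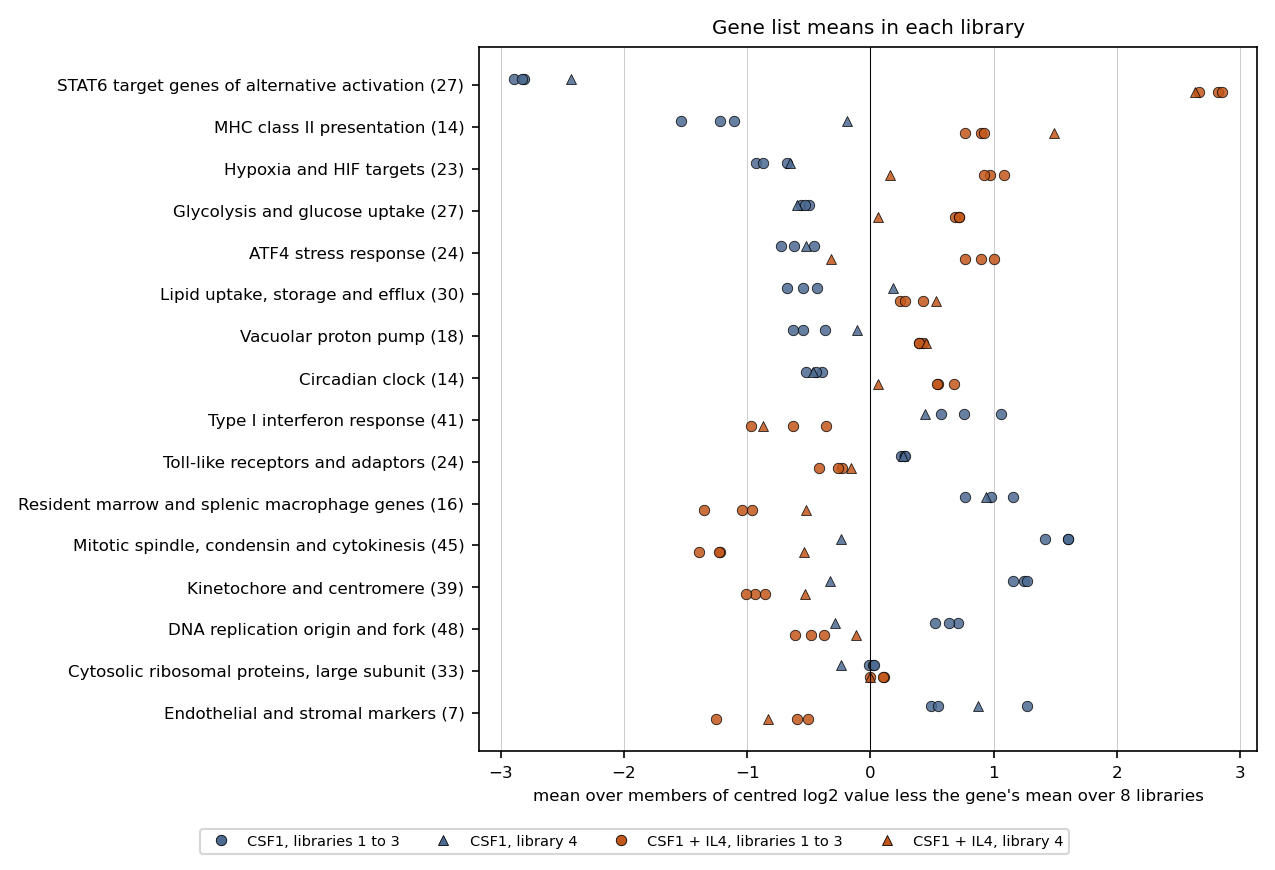
Mean over the members of a gene list (number in parentheses) of the centred log2 value less each gene's mean over the 8 libraries, for each library; blue marks controls, orange marks IL4, circles are libraries 1 to 3 and triangles are libraries numbered 4. The triangles lie between the groups for spindle and kinetochore genes, with control 4 at -0.24 and IL4 library 4 at -0.54 for the spindle list, and IL4 library 4 lies near 0 for glycolysis and hypoxia genes.

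The machinery of protein synthesis moved little relative to the median gene. Of 27 small-subunit and 33 large-subunit ribosomal protein genes none was called by limma (medians 0.01 and 0.03 after centring, -0.36 and -0.33 as deposited). At an unadjusted p under 0.05, 2 small-subunit genes fell and 0 large-subunit genes did, and with voom 1 and 0. Without control 4, 3 small-subunit genes and 1 large-subunit gene fell, and without control 2, 1 small-subunit gene rose. None was called either among 40 genes of protein translocation into the endoplasmic reticulum and N-glycosylation, where 3 fell at an unadjusted p under 0.05, 1 with voom and 1 without control 4. Mitochondrial ribosomal proteins gave 1 rise and 4 falls among 75 genes, ribosome biogenesis 2 rises among 41, translation factors 1 rise and 2 falls among 42 and the proteasome 1 rise among 42, Psmb6 (log2 fold change 1.01 ± 0.15 SE, limma adjusted p = 0.00426). These shares lie below the 7.96% and 12.7% over all genes. The rise among mitochondrial ribosomal proteins was lost without control 1, 2 or 4 or IL4 library 1, 2 or 4, and without both libraries numbered 4 there were 7 falls. Ribosome biogenesis had 1 rise without control 1 or 3 or IL4 library 2, 3 or 4. Translation factors had 0 rises without control 1 or IL4 library 3, 3 without IL4 library 4, and 1 fall without control 1 or 3 or IL4 library 1 or 2. The proteasome had 2 rises without IL4 library 4. Transfer RNA synthetases had 2 rises among 22 (9.1%, against 7.96% over all genes), led by Rars (log2 fold change 1.53 ± 0.18 SE, limma adjusted p = 0.000747). There were 7 rises without IL4 library 4, and 1 without control 1, 3 or 4 or IL4 library 1, 2 or 3. Among 32 heat shock and chaperone genes 4 rose and none fell, with Hsph1 rising from 43, 33, 30 and 33 to 173, 176, 133 and 101 reads (log2 fold change 2.31 ± 0.16 SE, limma adjusted p = 2.36e-05).

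Survival genes changed at a few positions. Of 35 apoptosis regulators 8 rose and 4 fell, with 5 rises without control 2, control 3 or IL4 library 2 or 3. The survival gene Bcl2 had 11, 5, 10 and 8 reads in controls and 26, 31, 18 and 18 with IL4 (log2 fold change 1.69 ± 0.30 SE, limma adjusted p = 0.00599), and Mcl1 rose (log2 fold change 0.91 ± 0.15 SE, limma adjusted p = 0.0127). The death-promoting genes Pmaip1 (20, 9, 7 and 17 and 6, 2, 1 and 2; log2 fold change -1.90 ± 0.44 SE, limma adjusted p = 0.00983), Bmf (-1.17 ± 0.23) and Bid (-0.92 ± 0.22) fell. These genes are a selection of the called members. The largest rise of the list was that of Bnip3 (2.39), given above, and Bcl2l1 was not called (-0.43).

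Markers of other blood and stromal cells were sparse. Of 16 monocyte markers 8 were measured, of which Fn1 and Chil3 rose and 3 fell, Vcan, Ccr2 and F13a1. The call of F13a1 was lost without any of 5 single libraries. Summed reads of the 7 with recovered reads were 429 to 821 in controls and 16228 to 28039 with IL4, where most were of Chil3. Of 22 T and NK cell markers 2 were measured, Lat (0, 0, 0 and 3 reads in controls and 10, 14, 10 and 5 with IL4) and Il7r (150, 57, 73 and 287 and 594, 632, 532 and 365), and both rose, their summed reads lying between 57 and 290 in controls and between 370 and 646 with IL4. Of 18 B cell markers 3 were measured, with summed reads between 93 and 173 in controls and between 164 and 201 with IL4. Of 22 neutrophil markers 6 were measured, with sums of 172 to 244 and 137 to 398, and of 18 erythroid markers 3, Car2, Tfrc and Epb4.1, with sums of 140 to 305 and 423 to 821. Megakaryocyte markers gave 3 of 14 genes with sums of 208 to 397 and 285 to 517, made up of Itgb3, Vwf and Pf4, of which Vwf, a carrier of clotting factor VIII, rose from 23, 11, 16 and 51 to 230, 219, 183 and 128 reads (log2 fold change 3.36 ± 0.39 SE, limma adjusted p = 0.00018) and Pf4 fell. Of 20 dendritic cell markers 7 were measured, with sums of 340 to 605 and 664 to 909, and the sum with IL4 includes Mgl2, at 0 reads in every control. Mast cell, basophil and eosinophil markers gave 5 of 20 genes with sums of 43 to 162 and 41 to 49, and progenitor markers 4 of 16 with sums of 21 to 52 and 10 to 20. The first of these lists includes Csf1, its only called member (log2 fold change -2.19), whose reads are given above. Csf1 was highest in control 2, the library with the sum of 162. The part of other cells in the results was not tested.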

How the data were processed

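RNA of cultured macrophages was sequenced from 8 TruSeq RNA v2 libraries, per the labels' protocols. Per the submitters' processing notes, the authors worked on mm10 with TopHat2 2.0.13 and bcl2fastq. How reads were counted, filtered, normalized and assigned to strands is not given in the sources used here, so reads of a gene and an antisense partner cannot be told apart. The deposited library values are on a log2 scale. Adding 0.5 to the reads of a gene, taking log2 and adding 1 constant for the library and 1 for the gene gives these values, so levels are not comparable between genes. Reads were recovered for 9376 of 9474 genes (largest residual 0.00077 on the log2 scale under 100 reads). Large counts are accurate only to the rounding of the deposited values. The authors' fold change and p-value columns were not used. The table held 0 library columns that were left out.

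Differences were fitted with limma 3.58.1 (R 4.3.3, variance trend, two-sided, no covariate, 6 residual degrees of freedom) on the deposited values and on values centred on each library's median, with Benjamini-Hochberg adjustment over 9474 genes. Calls need an adjusted p under 0.05 in both. Reads, lists and promoters were handled in Python 3.11.15 with numpy 2.4.6, pandas 2.3.3 and scipy 1.17.1, and the recovery of reads and the fit were tested on simulated data. Chi-square per degree of freedom between libraries of a group was 1.26 to 1.82 among libraries 1 to 3. It was 3.14 to 4.55 for pairs with a library numbered 4. None was treated as a duplicate, but libraries 1 to 3 lay much closer to each other than to library 4. Whether they share a culture or an animal is not said in the sources used here. The 96 gene lists (2666 symbols, 2172 measured genes, some in several lists) and the genes described were chosen with earlier results of these data known. Named genes are the 15 largest rises and falls without overlap and with a mean of at least 20 reads, the 2 largest rises and falls of each list, and Il4ra, Il2rg, Stat6, Arg1, Retnla, Chil3, Mrc1, Cd47, Sirpa, Emr1 and Csf1r. Other list members were named after their values were seen. In all, 19 alternative settings were run, among them quantile normalization, voom, library weights, a filter of 10 reads and leaving out each library. A few genes of the lists count in the totals but are not reported here by name.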

Additional observations from a re-analysis of the deposited data

Results flagged for a closer look

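Some values of a single library lay far from the others of its group, by the gap to the nearest library divided by the range of the group on the scale tested (log2 values after centring for genes and lists). The values below pass Dixon's 95% limit for 4 samples and are a selection. Means of other lists also lay as far apart, and not only in libraries numbered 4. For cytokines, growth factors and TNF family ligands, control 3 had -0.24 against 0.24 to 0.25. For scavenger receptors, IL4 library 1 had -0.37 against -0.19 to -0.17. Chance marks about 1 in 20 groups in this way. Retnla in IL4 library 4, with 11618 reads against 4641 to 5597, gave 0.881. Arg1 in IL4 library 4, with 1714 reads against 6839 to 8497, gave 0.945. Fam64a in control 4, with 8 reads against 46 to 71, gave 0.951.

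The total of recovered reads in control 1, 721413 against 511407 to 544583, gave 0.842. List means in control 4 were low for kinetochore genes (-0.33 against 1.16 to 1.27, a value of 0.931), for spindle genes (-0.24 against 1.42 to 1.60, 0.902) and for large-subunit ribosomal proteins (-0.24 against -0.01 to 0.03, 0.852). The glycolysis mean in IL4 library 4 was 0.06 against 0.69 to 0.72, which gave 0.955.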

How the results depend on the processing

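The 754 rises became 1365 with centred values only and 1271 with quantile normalization, and the 1205 falls became 3084 with the deposited values only. Every other setting kept both counts within 1.5 times. Leaving out single libraries gave 618 to 799 rises and 902 to 1291 falls, and 557 rises and 809 falls were called in all 8 of these fits. Of 280 called named genes, 241 kept their call in every setting that gave them a value. Stat6, which was not called, reversed its sign when the deposited values alone were fitted (-0.16). Without both libraries numbered 4, 833 genes rose and 1420 fell. Depth limits genes of few reads: in the median gene of a library 23 to 41 reads were recovered.

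Libraries with the same number in both groups are not stated to be paired, and their deviations from the group means did not go together (r -0.045 to 0.022 across genes, with 1 of 4 IL4 libraries closest to its own number). With a replicate block 710 genes rose and 1056 fell.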

Other observations

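Of the 1959 called genes, 1248 stood in none of the lists. The genes named here were chosen from them after their values were seen. Wfs1, a membrane protein of the endoplasmic reticulum, had 9, 2, 5 and 13 reads in controls and 242, 252, 236 and 209 with IL4 (log2 fold change 5.46 ± 0.40 SE, limma adjusted p = 1.34e-05). Flrt2, an adhesion and guidance protein, had 19, 15, 18 and 28 and 571, 639, 518 and 319 (log2 fold change 4.91 ± 0.25 SE, limma adjusted p = 1.06e-06). Dhrs9, a short-chain dehydrogenase, had 10, 7, 5 and 16 and 224, 220, 204 and 208 (log2 fold change 4.82 ± 0.29 SE, limma adjusted p = 3.18e-06). All 3 rose with no overlap between the groups.

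Proteoglycan genes were among the other rises. Sdc1, the cell surface proteoglycan syndecan 1, had 41, 27, 24 and 109 reads in controls and 466, 445, 344 and 277 with IL4 (log2 fold change 3.44 ± 0.40 SE, limma adjusted p = 0.000206), Gpc1, glypican 1, had 33, 64, 39 and 54 and 473, 488, 328 and 276 (log2 fold change 3.31 ± 0.29 SE, limma adjusted p = 4.99e-05), and Srgn, the core protein of granule proteoglycans, had 96, 42, 45 and 64 and 640, 747, 503 and 203 (log2 fold change 3.28 ± 0.32 SE, limma adjusted p = 9.07e-05). Control 4 was the highest control for Sdc1. The ubiquitin ligases Cblb and Wwp1 moved in opposite directions: Cblb had 49, 31, 23 and 33 and 379, 377, 291 and 201 (log2 fold change 3.46 ± 0.20 SE, limma adjusted p = 3.49e-06), and Wwp1 had 578, 407, 460 and 403 and 83, 58, 63 and 56 (log2 fold change -2.54 ± 0.13 SE, limma adjusted p = 1.17e-06).

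Further falls outside the lists included Igfbp4, a binding protein of insulin-like growth factors, with 372, 314, 258 and 197 reads in controls and 24, 8, 17 and 22 with IL4 (log2 fold change -3.76 ± 0.34 SE, limma adjusted p = 4.09e-05), and Arap3, a regulator of small GTPases, with 158, 95, 106 and 93 and 12, 3, 7 and 5 (log2 fold change -3.81 ± 0.32 SE, limma adjusted p = 2.71e-05). Abcc3, an organic anion exporter, had 201, 148, 173 and 133 and 18, 7, 17 and 16 (log2 fold change -3.24 ± 0.30 SE, limma adjusted p = 4.58e-05). Serpinh1, the collagen chaperone, had 42, 125, 36 and 64 and 8, 6, 13 and 9 (log2 fold change -2.42 ± 0.43 SE, limma adjusted p = 0.00227), and Col5a2 had 49, 102, 53 and 66 and 8, 7, 9 and 6 (log2 fold change -2.76 ± 0.28 SE, limma adjusted p = 8.07e-05). The last 2 are genes of collagen-making cells and moved with the stromal markers, whose part was not tested.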
